A study of Mus musculus with 4 samples.

Results

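Muc15, Bpifc and Wfdc17 are 3 of the 18193 mouse genes named on the array. They were chosen by their log2 differences between the lines, which were among the largest increases in basal cells marked by an involucrin-driven Cre over basal cells marked by a keratin 14-driven Cre. All probe sets whose platform symbol was Muc15, Bpifc or Wfdc17 were taken. Each gene had 1 probe set, so that 3 of 45037 probe sets were chosen and no second probe set was there to check any of them. CD-1 mice supplied the cells, which were freed from tail skin epidermis and sorted for YFP, high alpha6 integrin and absence of CD34, a gate meant for interfollicular basal cells. Every mouse carried a RosaYFP reporter that a tamoxifen-dependent Cre switches on. The InvCREER/RosaYFP group (2 arrays, 10 ug of tamoxifen) had the Cre under the involucrin promoter, which is active in differentiating keratinocytes. The K14CREER/RosaYFP group (2 arrays, 1 ug of tamoxifen) had it under the keratin 14 promoter of basal keratinocytes. Sample titles give 3.5 days after induction and the treatment protocol 4 days, the ages of the mice are not given, and the tamoxifen dose and the Cre line cannot be told apart. Whether the 2 arrays of each line stand for different animals is not given, so that their spread may be technical, and p-values measure only that spread.

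Muc15 encodes a membrane-bound mucin, a cell-surface protein whose extracellular part carries dense sugar chains. Bpifc belongs to the BPI-fold family, named after the neutrophil protein BPI, which binds bacterial lipopolysaccharide in a lipid-holding fold, and in humans variants of BPIFC have been linked to inherited cysts of hair follicle origin. Wfdc17, also named Amwap, encodes a small secreted protein with a WAP domain, the cysteine-rich fold of many serine proteinase inhibitors, and was described in activated mouse macrophages and microglia. The 3 products belong to separate protein families.

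Promoter windows (250 bases before to 50 after the annotated start, RefSeq, GRCm38.p6) were read for Bpifc and Wfdc17, while that of Muc15 was not used here. They are shown with those of Wfdc18 and Gm11430, the genes next to Wfdc17 on either side. In Bpifc the capitals mark the 1 match to TGANTCA, the AP-1 motif. In the other windows they mark the stretch that Wfdc17 and Wfdc18 share in a local alignment, and its counterpart in Gm11430.
Bpifc, chr10:86011811-86012110, minus strand: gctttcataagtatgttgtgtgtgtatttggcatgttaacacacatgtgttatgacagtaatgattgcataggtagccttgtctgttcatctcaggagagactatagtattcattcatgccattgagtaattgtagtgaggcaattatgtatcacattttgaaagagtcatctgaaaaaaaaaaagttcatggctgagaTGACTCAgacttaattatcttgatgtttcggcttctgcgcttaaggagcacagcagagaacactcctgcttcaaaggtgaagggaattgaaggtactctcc
Wfdc17, chr11:83703806-83704105, plus strand: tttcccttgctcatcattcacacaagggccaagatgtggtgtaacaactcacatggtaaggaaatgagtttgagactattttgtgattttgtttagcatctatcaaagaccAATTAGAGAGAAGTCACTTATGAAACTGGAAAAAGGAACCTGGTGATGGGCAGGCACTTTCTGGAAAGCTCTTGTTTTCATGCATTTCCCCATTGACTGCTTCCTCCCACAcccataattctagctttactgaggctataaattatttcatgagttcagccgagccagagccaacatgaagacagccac
Wfdc18, chr11:83708754-83709053, plus strand: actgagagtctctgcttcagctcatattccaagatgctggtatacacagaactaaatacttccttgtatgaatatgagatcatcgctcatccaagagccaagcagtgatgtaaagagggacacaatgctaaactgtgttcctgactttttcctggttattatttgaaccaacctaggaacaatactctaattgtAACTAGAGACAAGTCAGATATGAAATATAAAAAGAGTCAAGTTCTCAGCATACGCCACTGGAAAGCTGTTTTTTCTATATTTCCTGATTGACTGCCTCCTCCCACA
Gm11430, chr11:83695014-83695313, plus strand: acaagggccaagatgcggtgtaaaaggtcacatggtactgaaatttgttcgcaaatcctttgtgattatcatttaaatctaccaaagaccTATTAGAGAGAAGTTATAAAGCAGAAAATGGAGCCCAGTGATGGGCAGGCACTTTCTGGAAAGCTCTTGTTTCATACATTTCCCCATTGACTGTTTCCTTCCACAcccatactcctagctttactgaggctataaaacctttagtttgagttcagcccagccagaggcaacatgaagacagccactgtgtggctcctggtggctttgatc

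The AP-1 match in Bpifc started at position -51 from the annotated start, and 7.81% of 32851 promoter windows held that motif on either strand. Wfdc17 held no such match. It held TATAAA at position -3 (in 13.6% of windows), CACCC, a KLF motif, at -30 (57.5%) and the reverse complement of GAGGAAG, a PU.1 motif, at -40 (13.6%). These 3 matches do not overlap. Neither window held AACCNGTT, the Grainyhead motif, which 2.09% held, and so neither held its form AACCGGTT (0.146%). The C/EBP motif TTGCGCAA (0.183%) was in neither. TTNCNNAA, a loose C/EBP motif in 40.7% of windows, was found 3 times in Bpifc and 2 times in Wfdc17. No searched motif but that loose one was found in both windows. A match is a description of letters and was not tested as a binding site. Both windows were poor in G and C, at 38.7% in Bpifc and 42.0% in Wfdc17, against a median of 52.7% over all windows.

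Wfdc17 lies in a row of related genes. Gm11430, annotated as a long noncoding RNA, matched the Wfdc17 window at 236 of 284 aligned columns (83.1%), from position -229 to 50 of the Wfdc17 window. Of 32850 other windows it scored highest and Wfdc18 next, with 82 of 112 columns identical (73.2%). No annotated gene lies between Wfdc17 and either of them. Gm11430 had no named probe set here and the array's probe sequences were not used, so that signal from Gm11430 and from Wfdc17 cannot be told apart on the Wfdc17 probe set. The platform annotation also gives that probe set no accession. The Wfdc18 probe set has a name that marks several possible transcripts.

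Muc15 had log2 signals of 8.93 and 9.20 on the InvCREER arrays, against 4.53 and 5.48 on the K14CREER arrays. The lines did not overlap, as was true with InvCREER higher of 20.0% of all tested probe sets, and the lower InvCREER array lay 10.9-fold above the higher K14CREER array. Background was read from 81 probe sets for odorant, vomeronasal and trace amine receptors, genes known mainly from sensory neurons. Muc15 was within that background on K14CREER 1 and near it on K14CREER 2. It was 0.51 above the receptor median on K14CREER 1, where 17 of the 81 receptor probe sets were at or above it, and 1.57 above it on K14CREER 2, where 2 were. On the InvCREER arrays it was 5.07 and 5.21 above the receptor median, and none of the 81 reached it. Muc15 averaged 9.06 ± 0.19 in InvCREER and 5.01 ± 0.67 in K14CREER (SD, n = 2 each), a difference of 4.06 with a moderated standard error (SE) of 0.35. With values raised to the 95th percentile of the receptor probe sets on their array, an alternative added after the data were seen, the difference was 3.67. Since the K14CREER 1 value lies within background, and the K14CREER 2 value just above the receptor 95th percentile, the size of the difference is uncertain.

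Bpifc was at 9.95 and 9.97 on the InvCREER arrays, against 6.41 and 5.91 on the K14CREER arrays. The InvCREER arrays differed by 0.01, the tightest pair of values among the 3 genes. The means were 9.96 ± 0.01 in InvCREER and 6.16 ± 0.36 in K14CREER (SD, n = 2 each). Their difference was 3.80 (SE 0.26), or 13.9-fold. In InvCREER cells Bpifc was 6.09 and 5.98 above the receptor median, and no receptor probe set reached it. In K14CREER cells it was 2.39 and 1.99 above, and 1 receptor probe set, that of Vmn1r44, was at or above it on each array. Bpifc was therefore low but measurable in K14CREER cells, unlike Muc15 on K14CREER 1.

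Wfdc17 was at 12.18 and 11.64 on the InvCREER arrays, against 8.77 and 7.72 on the K14CREER arrays. It stood well clear of background on all 4 arrays, by 8.31 and 7.66 in InvCREER and by 4.75 and 3.81 in K14CREER, and no receptor probe set reached it on any array. The means were 11.91 ± 0.38 in InvCREER and 8.24 ± 0.74 in K14CREER (SD, n = 2 each). The difference was 3.67 (SE 0.37), or 12.7-fold, and is not limited by background. Its lines came closest to each other: the lower InvCREER array lay 7.33-fold above the higher K14CREER array, against 11.7-fold for Bpifc.

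**Figure D1:**
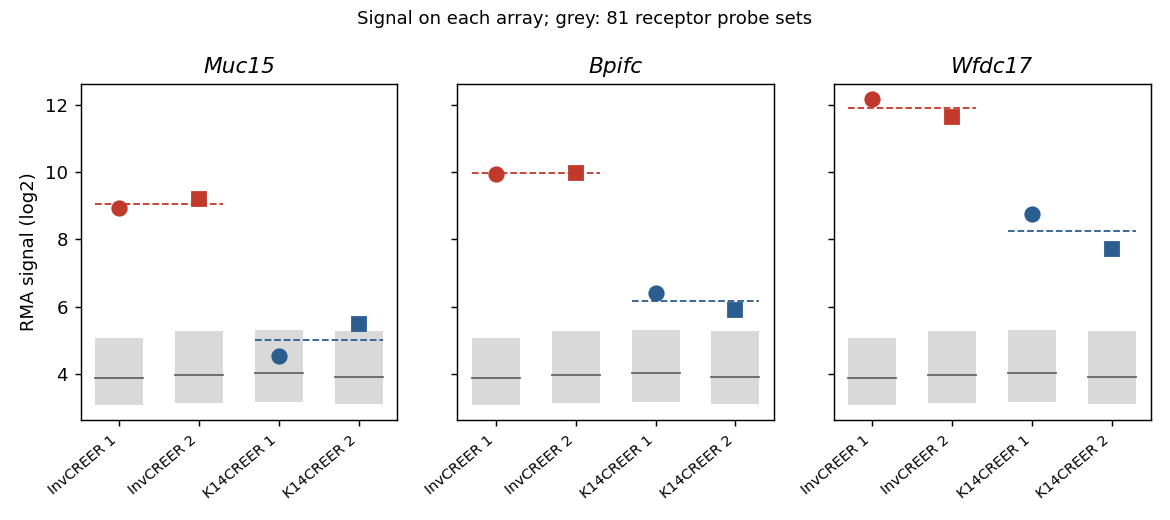
RMA signal (log2) of the Muc15, Bpifc and Wfdc17 probe sets on each array, InvCREER in red and K14CREER in blue, circles for array 1 and squares for array 2. Dashed lines are line means, grey lines and boxes the median and the 5th to 95th percentile of the receptor probe sets on that array; Muc15 falls inside the grey box on K14CREER 1 (4.53) and just above it on K14CREER 2 (5.48).

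The differences above are what the genes were chosen for and are given without a test. In limma's fit over 22519 tested probe sets, at an adjusted p under 0.05, 216 were called (0.959%), 154 of them higher (0.684%) and 62 lower (0.275%) in InvCREER, and these 3 were among them because large called differences were the ground for choosing them. They were among the 12 largest called increases by gene, with Bpifc as the 7th and Wfdc17 as the 10th on the values as measured. Muc15 has no firm place among them, because its difference of 4.06 lay above that of Bpifc (3.80) as measured and below it (3.67) with values raised to the receptor 95th percentile. The last gene inside that limit was Serpina3a at 3.42 and the nearest outside it Cttnbp2 at 3.35. Both of these, and Olah and Cd36 higher up, lay below the receptor 95th percentile on both K14CREER arrays. The places of Bpifc and Wfdc17 and the limit itself are therefore uncertain too. All 3 genes passed the filter on dim probe sets, a 4-array mean of at least 5.42. Muc15 passed it only through the InvCREER arrays, its K14CREER mean of 5.01 lying below that value. These are bulk samples of sorted cells, in which more cells with a transcript and more transcript per cell cannot be told apart.

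The genes varied in different ways within a line. In K14CREER the array 1 value minus the array 2 value was -0.95 for Muc15, 0.50 for Bpifc and 1.05 for Wfdc17. For 95% of tested probe sets the size of that gap was at most 0.90, so that the K14CREER spread of Wfdc17 was wide. The gap of Muc15 is taken against a K14CREER 1 value inside the receptor range, so that its size is uncertain. In InvCREER the same gap was -0.26, -0.01 and 0.53, inside the limit of 0.93 for 95% of tested probe sets.

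Likeness of pattern was measured as the Euclidean distance between the 4 array values of 2 genes after each gene's own mean was subtracted, over 11270 genes with 1 probe set each. It is a description over 4 arrays, and a gene can be near only if its difference between the lines is of like size. Wfdc17 was nearest to Krt84, at a distance of 0.19. Krt84 is a hair-type keratin of the scales of mouse tail epidermis, and its signals were 13.12 and 12.82 in InvCREER, against 9.73 and 8.69 in K14CREER. Next to Wfdc17 came Bpifc (0.56), the ceramidase gene Acer1 (0.57), Sdr16c6 (0.60) and Krt36 (0.73), another scale keratin.

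Bpifc was nearest to Acer1, at 0.24, and to Elovl4 at 0.35, both enzymes of the long-chain lipids that form the skin barrier. Krt84 (0.44), Krt36 (0.51) and Wfdc17 (0.56) followed. Muc15, whose distances include a K14CREER 1 value within background, had no neighbour as close: Gsta2, a glutathione transferase gene, was nearest at 0.64, before Elovl4 (0.73), the thioesterase gene Olah (0.75), Cttnbp2 (0.80) and Acer1 (1.00). Among the 3 genes themselves the distance was 0.56 between Bpifc and Wfdc17, 1.07 between Muc15 and Bpifc, and 1.57 between Muc15 and Wfdc17.

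**Figure D2:**
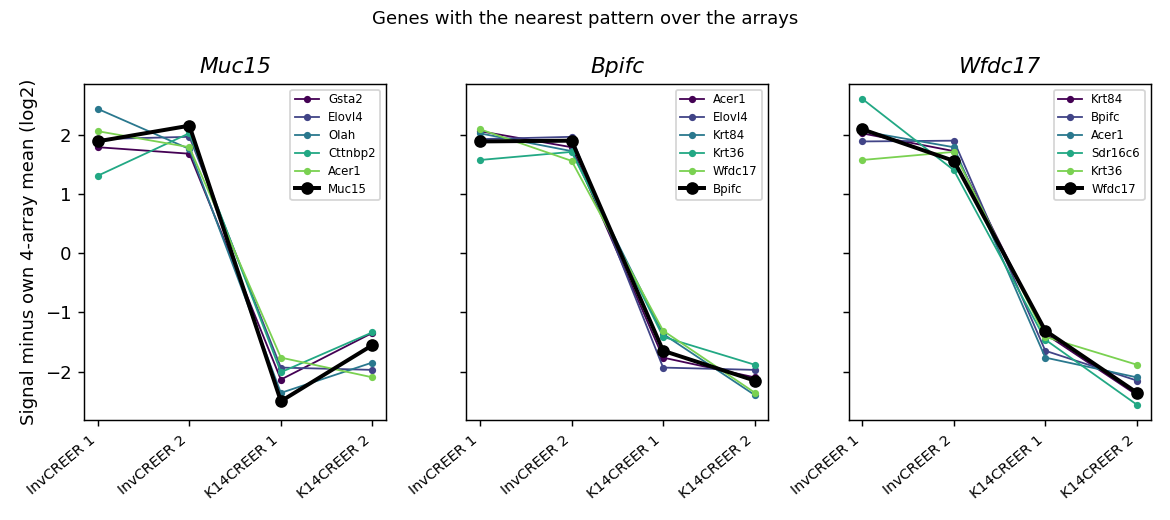
Signal minus each gene's own mean over the 4 arrays (log2) for Muc15, Bpifc and Wfdc17 (black) and the 5 genes nearest to each (coloured). Bpifc, Wfdc17, Krt84 and Acer1 are lower on K14CREER 2 than on K14CREER 1. The Muc15 value on K14CREER 1 lies within background, as do those of Olah and Cttnbp2 on both K14CREER arrays.

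Few other genes of the 3 families gave a signal high enough to be tested, and limma called none of those. By the same limma threshold, with the probe set of highest mean for each gene, 150 of 11270 genes were called (1.33%, with 0.958% higher), and Muc15, Bpifc and Wfdc17 are left out of the counts. Of 18 other mucins and mucin-like surface proteins with a probe set, 4 had a signal high enough to be tested. None of them was called by limma, and 0 had an unadjusted p under 0.05. The share of all tested genes at that unadjusted level is not given, so that counts at it, here and below, have no base share beside them. Their median difference was 0.13, against -0.01 over all tested genes. Cd164, a sialomucin of many cell types, was at 11.49 and 11.85 in InvCREER, against 11.75 and 11.98 in K14CREER. Muc1, Muc4 and Muc16, other membrane-bound mucins, stayed below the filter, with signals of 3.57 to 5.38 on all 4 arrays.

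Of 15 tested enzymes of mucin-type sugar chain synthesis, limma called 0, with 1 higher and 1 lower at an unadjusted p under 0.05, and the median difference was -0.09, or 0.07 without K14CREER 1. Galnt6, which adds the initial sugar of such chains, was the farthest from 0. It had 8.72 and 9.03 in InvCREER, against 7.60 and 6.58 in K14CREER, a difference of 1.78 (limma adjusted p = 0.0916). With 1 array left out its limma adjusted p was 0.0307 (InvCREER 1), 0.0484 (InvCREER 2), 0.0615 (K14CREER 1) and 0.184 (K14CREER 2), the last with a difference of 1.28.

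In the BPI-fold family 11 other genes had a probe set and 2 were tested. limma called neither, and 1 had an unadjusted p under 0.05. Pltp, which transfers phospholipids between lipoproteins, was at 8.04 and 7.82 in InvCREER, against 9.59 and 8.56 in K14CREER. Its difference was -1.15 (limma adjusted p = 0.222), opposite in sign to that of Bpifc. That difference was -0.63 without K14CREER 1 and -1.66 without K14CREER 2. Lbp, the lipopolysaccharide-binding protein of serum, was at -0.07 (limma adjusted p = 0.951). The 9 others, all members of the Bpifa and Bpifb branches, were below the filter, with differences of -0.18 to 0.44. Of 13 tested genes of lipopolysaccharide sensing limma called 0, with 1 at an unadjusted p under 0.05 (Irak3, a negative regulator of the pathway, at 0.87). Their median difference was 0.06, and the receptor co-factor gene Cd14 was at -0.59 (limma adjusted p = 0.372). Tlr4, the gene of the lipopolysaccharide receptor itself, was below the filter and not tested. It was at 4.8 and 5.1 in InvCREER, against 4.5 and 5.2 in K14CREER, within background on every array.

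Among 14 other WAP domain genes with a probe set, 5 were tested and limma called 0, with 1 at an unadjusted p under 0.05. That gene was Wfdc18, the neighbour of Wfdc17. Wfdc18 was at 8.51 and 8.43 in InvCREER, against 6.93 and 5.82 in K14CREER. The lines did not overlap, and its K14CREER arrays differed in the same direction as those of Wfdc17. The difference was 2.10 (SE 0.38, limma adjusted p = 0.0672). It was called without K14CREER 1 (adjusted p = 0.0399 by limma), without InvCREER 1 (0.0265) and without InvCREER 2 (0.0134), and not without K14CREER 2 (0.117). Slpi, the secretory leukocyte proteinase inhibitor of many epithelia, was at 7.25 and 7.07 in InvCREER, against 8.96 and 6.63 in K14CREER, so that the K14CREER arrays enclosed the InvCREER values (difference -0.64, limma adjusted p = 0.808). Wfdc12, Wfdc1 and Wfikkn1 were at 0.32, 0.43 and 0.52, none of them called by limma. Wfdc21 stayed below the filter, at 5.07 and 5.59 in InvCREER and 4.80 and 4.46 in K14CREER.

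Of 9 tested epithelial defence genes limma called 1, Ang, an RNase gene, which fell by 3.61 (adjusted p = 0.0115 by limma) on a probe set whose name marks several possible transcripts. A second probe set of that kind was also called, at -2.38 (limma adjusted p = 0.0215), while the probe set without such a mark was at -0.78 (limma adjusted p = 0.304). On the first of these probe sets Ang was at 5.40 and 4.78 in InvCREER, against 8.42 and 8.98 in K14CREER. The InvCREER 2 value lay below the receptor 95th percentile of that array (5.27), so that the size of the fall is uncertain. That probe set passed the filter only through the K14CREER arrays. Of the 9 tested genes 4 were higher and 2 lower at an unadjusted p under 0.05 by limma, and the median difference was 1.65. That median was 0.50 without K14CREER 2 and 1.97 without K14CREER 1, an alternative added after the data were seen. Sprr2d, a cornified envelope protein with a defence role, was at 2.64 (limma adjusted p = 0.0840), and Slurp1, a secreted keratinocyte peptide, at 2.02 (limma adjusted p = 0.0754). Both were called when either InvCREER array was left out and not when either K14CREER array was. The calprotectin genes S100a8 and S100a9 were at 1.75 and 1.84, with their K14CREER arrays far apart (10.59 and 7.53 for S100a8). Defb1, a constitutive beta-defensin, was at -0.82 and Defb6 at 0.98.

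**Figure D3:**
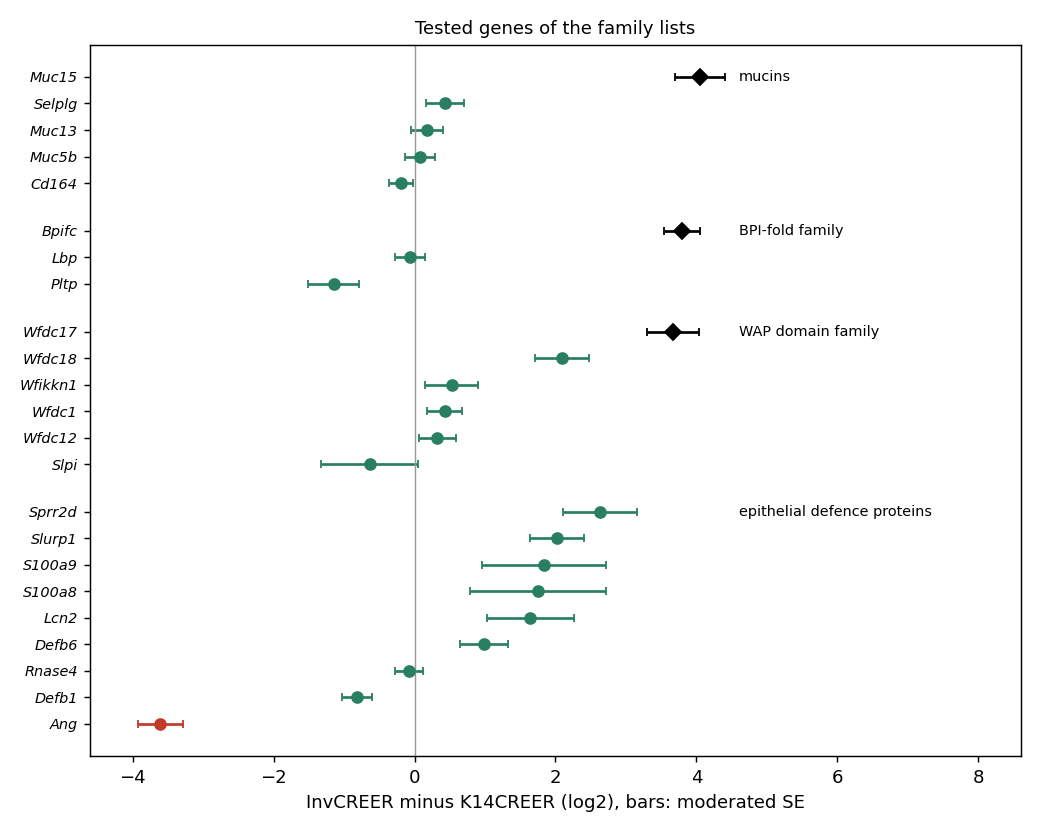
InvCREER minus K14CREER difference (log2, bars moderated SE) of the tested genes in the mucin, BPI-fold, WAP domain and epithelial defence lists. Black diamonds are Muc15, Bpifc and Wfdc17, red is a gene called by limma (Ang) and green a gene not called; among the mucin, BPI-fold and WAP domain genes not in black the highest is Wfdc18 at 2.10, and Sprr2d of the defence list is at 2.64.

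The position of each gene was examined through the 3 tested genes nearest to it on either side in the RefSeq order of GRCm38.p6. Muc15 lies inside the span of Ano3, a membrane protein gene. Ano3 was at background, with 3.93 and 4.25 in InvCREER and 3.95 and 4.28 in K14CREER. Of the 6 tested neighbours of Muc15, limma called 1, Bbox1, which makes carnitine for fatty acid transport and had 6 annotated genes starting between it and Muc15. Bbox1 was at 9.71 and 9.38 in InvCREER, against 6.32 and 6.97 in K14CREER, and rose by 2.90 (SE 0.30, adjusted p = 0.0157 by limma). Its other probe set gave 2.82 (adjusted p = 0.00966 by limma), and Bbox1 was called in all 11 other settings tried. The other 5, Ccdc34, Lgr4, Lpcat4, Nop10 and Emc4, had differences of -0.38 to 0.33. They lie farther off, with 11, 12, 56, 58 and 61 annotated genes starting between each of them and Muc15. On the side of Lpcat4, Nop10 and Emc4, the genes closer to Muc15 were thus not tested.

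Of the 6 tested neighbours of Bpifc limma called 1, in the opposite direction. Timp3, an inhibitor of matrix metalloproteinases, was at 8.22 and 8.14 in InvCREER, against 9.82 and 9.51 in K14CREER. It fell by 1.49 (adjusted p = 0.0429 by limma), a call lost without K14CREER 1 (0.171) or K14CREER 2 (0.0902), without the filter (0.0512) and without the variance trend (0.0644). The other 2 tested Timp3 probe sets were at -1.57 and -1.37 and were not called (0.0728 and 0.0611 by limma). Rtcb and Fbxo7, the tested genes closest to Bpifc on either side, were at -0.07 and 0.14. Around Wfdc17 limma called 0 of 6 neighbours, with Wfdc18 at 2.10 and the other 5 at -0.46 to 0.10. The chemokine gene Ccl4, on the other side, was at -0.06 (limma adjusted p = 0.964).

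**Figure D4:**
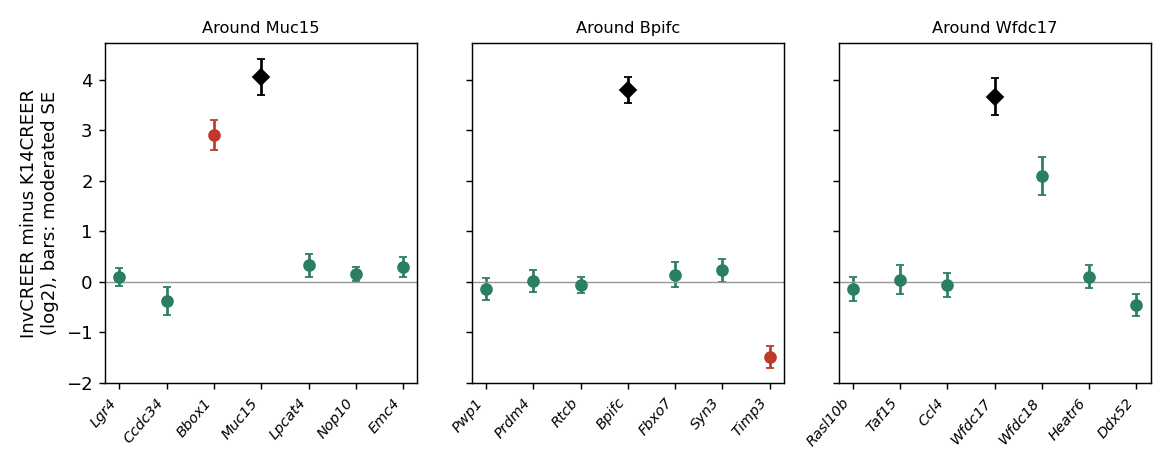
InvCREER minus K14CREER difference (log2, bars moderated SE) of Muc15, Bpifc and Wfdc17 (black diamonds) and the 3 nearest tested genes on either side, in chromosome order and not to scale. Red marks neighbours called by limma, Bbox1 at 2.90 and Timp3 at -1.49, and green those not called.

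Markers of the cell types that these genes could come from were read beside them. Wfdc17 is known from macrophages, and of 16 macrophage and monocyte markers 2 passed the filter, Csf1r and Fcgr1, and 10 did not exceed the 95th percentile of the receptor probe sets on any array. The mean of the 16 was 4.87 and 4.78 in InvCREER, against 4.77 and 4.69 in K14CREER. Csf1r, the receptor that macrophages need, was at 7.39 and 6.64 in InvCREER, against 6.46 and 6.53 in K14CREER (difference 0.52, limma adjusted p = 0.564). Adgre1, C1qa, C1qb, C1qc, Mrc1 and Cd163, which define tissue macrophages, were at 3.76 to 4.77 on all 4 arrays, below the filter. Other markers below the filter exceeded that percentile on 1 or 2 arrays. Tyrobp was at 6.19 and 5.29 in InvCREER, against 4.93 and 4.74 in K14CREER. Cd68 was at 4.89 and 5.04 in InvCREER, against 5.51 and 5.86 in K14CREER. The differences of Lyz2 and Fcer1g were 0.31 and 0.27. Langerhans and dendritic cell markers were higher, with a mean over all 10 of 6.998 and 5.767 in InvCREER and 5.342 and 5.03 in K14CREER. Over the 6 tested that mean was 8.17 and 6.56 in InvCREER, against 5.74 and 5.34 in K14CREER. Of these 6, Ctss and Cd207 passed the filter only through the InvCREER arrays, so that it favoured a higher InvCREER value for them. limma called 0 of these 6. All 6 had an unadjusted p under 0.05, a level whose share over all genes is not given. Of 8 neutrophil markers 1 was tested, Il1r2, a decoy receptor that other cells also make, which fell by 1.93 (adjusted p = 0.0319 by limma). That call was lost without K14CREER 1 (0.0966) or K14CREER 2 (0.0914).

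Sebaceous gland markers differed most between the InvCREER arrays. The mean of the 9 was 9.19 and 7.75 in InvCREER, against 6.45 and 6.00 in K14CREER, so that InvCREER 1 was 1.44 above InvCREER 2. Over those arrays Muc15 differed by -0.26, Bpifc by -0.01 and Wfdc17 by 0.53. Without InvCREER 1 the line differences were 4.19 for Muc15, 3.81 for Bpifc and 3.40 for Wfdc17. The median difference of the 8 tested sebaceous markers was then 1.36, against 2.02 with all arrays. Leaving that array out therefore did not remove the sebaceous difference, and a sebaceous part in the 3 signals was not tested. Of the 8 tested sebaceous markers 1 was called, Dgat2 at 1.81 (adjusted p = 0.0436 by limma), a call lost without either K14CREER array. All 8 lay higher in InvCREER, and all 8 had an unadjusted p under 0.05 by limma. Scd3, Mc5r and Pparg passed the filter only through the InvCREER arrays, so that the filter itself favoured a higher InvCREER value for them. Plin5, below the filter, was at 0.08. The largest differences were those of Far2 (4.01), Cidea (3.69) and Elovl3 (3.36). Markers of the inner root sheath and companion layer of the follicle had 0 of 3 tested genes called by limma, with 1 at an unadjusted p under 0.05. That gene, Krt73, passed the filter only through the InvCREER arrays. Of 9 upper follicle markers Lgr6 alone was called, lower at -1.79 (adjusted p = 0.0292 by limma), a call lost without either K14CREER array. These markers went both ways, with 3 higher and 3 lower at an unadjusted p under 0.05 by limma and a median difference of -0.06. Krt79 and Cst6 were at 1.98 and 1.71, and Plet1 and Fst at -1.07 and -1.31.

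Spinous markers and tail scale keratins lay higher on both InvCREER arrays, with InvCREER 1 minus InvCREER 2 at -0.22 over the spinous list and 0.08 over the scale list. Of 8 spinous markers 7 were called higher, with list means of 11.91 and 12.12 in InvCREER and 10.28 and 10.31 in K14CREER. All 5 tested granular markers lay higher in InvCREER, 3 of them at an unadjusted p under 0.05 by limma, with a median difference of 1.01. Elovl4 was the 1 called. Klk5 was at 1.315 and Tgm3 at 1.01, while Casp14, a caspase of cornification, was at 0.03. Lor, the envelope protein loricrin, had 6.88 and 7.70 in InvCREER, against 6.16 and 7.20 in K14CREER, with overlap. Abca12, Hrnr, Flg and Ivl lay below the filter, at 1.49, 0.27, 0.06 and -0.49. The tail scale keratins Krt84 and Krt36 were both called, with means of 13.22 and 13.14 in InvCREER and 10.02 and 9.27 in K14CREER. All 8 basal markers lay lower in InvCREER and 2 were called. The part of these cell types in the signal of Muc15, Bpifc and Wfdc17 was not tested.

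The genes of the Cre drivers and of the gate were read too. Krt14 was at 13.82 and 13.85 in InvCREER and 14.14 and 14.17 in K14CREER, and Itga6, the alpha6 integrin gene, at 11.62 and 11.77 in InvCREER and 12.38 and 12.41 in K14CREER. Ivl, the involucrin gene, was below the filter, at 4.78 and 5.06 in InvCREER and 4.58 and 6.23 in K14CREER. Cd34 was likewise below it, at 3.88 and 3.66 in InvCREER and 6.07 and 3.59 in K14CREER. Over the tested probe sets Pearson's r was 0.967 between the InvCREER arrays, 0.969 between the K14CREER arrays and 0.928 to 0.958 across lines, as a description over genes with shared arrays.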

How the data were processed

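Basal cells sorted from tail epidermis were profiled on 4 Affymetrix arrays, 2 per Cre line. The authors amplified 100 ng of total RNA per array for 3' expression analysis, per the labels' protocols. Per the submitters' processing notes, RMA and Affymetrix Expression Console 1.1 were used to give log2 values per probe set. RMA gives every array the same overall distribution, and a shift of the whole transcriptome is lost. The deposited log2 values had array medians of 5.41 to 5.44. Detection calls were not used here, and the number of arrays limits the precision.

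Of 45101 probe sets, 64 controls were set aside. The 22519 probe sets with a mean of at least 5.42, the median of the others, were tested with limma 3.58.1 in R 4.3.3 (lmFit, eBayes with a mean-variance trend, 2-sided, no block, Benjamini-Hochberg over all of them), a procedure checked on simulated data. In that check 1, 21, 35 and 39 of 50 probe sets changed by 1, 2, 3 and 4 log2 units were recovered. A gene that limma did not call may therefore still differ. Genes were named from the platform annotation by probe sets with 1 symbol, 34945 in all (932 had several and 9160 were unnamed here), and the brightest probe set by mean stood for a gene. Background on an array was the 81 probe sets with symbols starting Olfr, Vmn1r, Vmn2r or Taar. Promoters came from RefSeq (GRCm38.p6) and were aligned locally (match 2, mismatch -3, gap opening -5, gap extension -2). The windows of Wfdc18 and Gm11430 were chosen after their positions and alignment scores were seen.

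The members and the gene lists were chosen with earlier results of these data known. Named besides the members were the 5 genes nearest each in pattern, the called or brightest list genes, the 3 tested neighbours on either side, and Krt14, Ivl, Itga6 and Cd34. Other list genes were named after their values were seen. Alternatives covered the filter, variance trend, array weights, scaling, replicate block, probe set choice, background set and each array left out. Fits without an array take the spread from the line that still has 2. Figures were drawn with matplotlib 3.10.9.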

Additional observations from a re-analysis of the deposited data

How the results depend on the processing

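The differences of Muc15, Bpifc and Wfdc17 stayed above 0 under the scaling, background and left-out-array alternatives, which is no sign of stability, since the genes were chosen for lines that lie far apart. The filter, variance trend and array weights bear on the test and not on these differences, and 1 probe set per gene leaves no choice of probe set. With each array left out in turn they ran from 3.58 to 4.53, 3.55 to 4.05 and 3.14 to 4.19, ranges set by the gap between the arrays of a line. The replicate block, taken as the mean difference of same-numbered arrays, leaves them at 4.06, 3.80 and 3.67 by construction. With the dimmest 25% of probe sets as background, the mean level over background was 3.24, 4.26 and 6.28, against 3.09, 4.12 and 6.13 with the receptor probe sets.

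The number of called probe sets, 216, was 405 at the stricter filter (fewer probe sets tested), 122 without the variance trend and 1390 with the replicate block. It ran from 82 without K14CREER 1 to 981 without InvCREER 2, and was 143 without K14CREER 2 and 499 without InvCREER 1. The 1 called gene of the 6 family lists became 2 at the stricter filter, 7 with the replicate block, 5 with the mean of a gene's probe sets and 0 once probe sets marked _s_at or _x_at were dropped, and ran from 1 to 5 with an array left out. With the block Pltp was among the called (limma adjusted p = 0.0468). The cause of these shifts was not tested. The labels do not say that an array number marks a shared litter or day. The deviations of arrays 1 from 2 correlated between the lines at 0.380 across probe sets, and a lost or gained call under the block is no sign of a weaker or stronger effect. With 2 arrays per line, and the K14CREER 1 signal of Muc15 within background, only large differences could be measured.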
